A study of Mus musculus with 12 samples.

Results

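The 10 genes described here encode lipid droplet proteins: the perilipins Plin1 to Plin5, the CIDE genes Cidea, Cideb and Cidec, and the FIT genes Fitm1 and Fitm2. They were chosen by gene family from the 55401 genes counted, and all 10 were found. RNA of subcutaneous white adipose tissue (scWAT), a fat depot beneath the skin, was sequenced from female mice, with 12 libraries in 4 groups of 3. Wild-type (WT) mice and mice homozygous for a mutated Jmjd1a allele (Jmjd1a HY/HY, called HY/HY from here on) spent 1 week at 30°C or 8°C, after 1 week of acclimation at 30°C. The age at the start is listed as 16 and was taken as weeks. JMJD1A, encoded by Kdm3a, is a histone demethylase that removes methyl groups from H3K9. The HY allele changes a histidine to a tyrosine in its catalytic domain and was made in the germline, so it is carried by every tissue, and the mice came from 1 of the knock-in lines. Mice of both genotypes were caged individually.

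A lipid droplet is a store of triglyceride wrapped in a single layer of phospholipids, on which perilipins sit as a coat. PLIN1 holds back lipolysis in adipocytes until adrenergic signalling phosphorylates it, PLIN2 and PLIN3 coat droplets in most cell types, PLIN4 coats nascent droplets of adipocytes and muscle, and PLIN5 ties droplets to mitochondria in oxidative tissues. CIDE proteins collect where droplets touch and pass lipid from the smaller to the larger droplet: CIDEC serves the large droplet of white adipocytes, CIDEA is known from brown and beige adipocytes with their many small droplets, and CIDEB is best known from liver. FIT proteins act in the endoplasmic reticulum when droplets bud, FITM1 in muscle and FITM2 in most tissues, fat included. In scWAT, cold recruits beige adipocytes, which burn fatty acids released from droplets to make heat.

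Between 13592629 and 26352081 read pairs were counted on the sense strand of genes in each library, with fewer in each group at 8°C (13592629 to 17955584) than at 30°C (18305586 to 26352081). Levels are given in CPM, counts over library sizes that were scaled by TMM, a method that sets the bulk of genes level between libraries. Kdm3a RNA was at 35.6 to 61.6 CPM in the 12 libraries and was called in none of the comparisons. Because the mutation is a substitution, this level does not check the genotype labels. The tissue label was checked on 10 white adipocyte markers, whose summed level was 26350 to 72980 CPM. WT 30°C library 2 stood apart through muscle RNA: 10 skeletal muscle markers summed to 1425 CPM there and to 4.23 to 24.2 CPM in the other libraries. HY/HY 30°C library 2 had the lowest white adipocyte sum, 26350 CPM. Lymphocyte markers summed to 69.5 to 357 CPM in HY/HY and 29.1 to 78.6 CPM in WT libraries, and macrophage markers to 260.0 to 456 and 189 to 239 CPM. In bulk tissue, fewer cells of a type and less RNA per cell cannot be told apart.

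Positions are those of the RefSeq annotation of mm10, and except for Fitm1 the genes placed here are transcribed from the reverse strand. Plin1 lies at chr7:79721164-79732904, Plin2 at chr4:86626910-86670217, Cidec at chr6:113424634-113435760 and Fitm2 at chr2:163468703-163472629. Plin4 (chr17:56100587-56109948), Plin5 (chr17:56111597-56117606) and Plin3 (chr17:56278962-56290511) lie in a row on chromosome 17, with 1648 bases between Plin4 and Plin5 and 161355 between Plin5 and Plin3. Fitm1 (chr14:55575674-55576952) and Cideb (chr14:55754052-55758424) share chromosome 14, with 177099 bases between them. Annotated genes overlap Plin2, Plin4, Cidea, Cideb, Cidec and Fitm2, and the sense-strand counts used here assign reads by strand.

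The promoter windows below are shown for Plin2, Plin5 and Cideb, which rose in the cold in WT mice, and for Plin4, the neighbour of Plin5, which was not called. RefSeq windows (GRCm38.p6) were at hand for 9 of the 10 genes, Cidea being the exception, with 11 windows in all because Plin5 and Cidec each have a pair of starts. Each line gives the 250 bases before the annotated start and the first 20 bases from it, 5′ to 3′ on the strand of the gene, all 4 from the reverse strand, and capitals mark motif matches. The lines cover chr4:86670040-86670309 for Plin2, chr17:56117529-56117798 for Plin5, chr14:55758405-55758674 for Cideb and chr17:56109763-56110032 for Plin4.
Plin2: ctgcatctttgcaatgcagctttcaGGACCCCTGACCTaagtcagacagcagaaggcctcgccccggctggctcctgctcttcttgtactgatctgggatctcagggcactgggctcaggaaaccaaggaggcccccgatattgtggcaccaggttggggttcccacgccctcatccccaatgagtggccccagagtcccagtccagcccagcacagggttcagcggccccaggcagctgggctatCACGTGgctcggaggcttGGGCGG
Plin5: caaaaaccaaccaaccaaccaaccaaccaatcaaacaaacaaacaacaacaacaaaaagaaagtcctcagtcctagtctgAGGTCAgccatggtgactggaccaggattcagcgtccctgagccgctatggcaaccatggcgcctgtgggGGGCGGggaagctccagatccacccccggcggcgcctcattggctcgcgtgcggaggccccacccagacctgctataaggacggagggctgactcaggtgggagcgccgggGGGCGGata
Cideb: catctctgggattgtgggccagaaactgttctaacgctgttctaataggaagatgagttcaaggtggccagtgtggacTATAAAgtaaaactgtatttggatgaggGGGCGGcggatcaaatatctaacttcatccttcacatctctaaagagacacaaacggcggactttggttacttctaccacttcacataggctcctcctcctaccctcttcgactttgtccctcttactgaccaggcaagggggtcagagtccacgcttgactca
Plin4: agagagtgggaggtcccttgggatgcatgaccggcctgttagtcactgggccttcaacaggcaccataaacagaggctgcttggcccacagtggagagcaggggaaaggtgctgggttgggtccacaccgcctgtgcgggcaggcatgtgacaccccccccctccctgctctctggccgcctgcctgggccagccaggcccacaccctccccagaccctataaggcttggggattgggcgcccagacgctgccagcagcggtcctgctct
Exact matches were searched on both strands of the 300-base windows. The motifs were AGGTCA, the hexamer of many nuclear receptors, its extended form TCAAGGTCA, known from estrogen-related receptors, the cyclic AMP response element TGACGTCA, and CACGTG, which is the E-box, besides the TATA box as TATAAA and the GC box, written here as GGGCGG. DR1, a pair of nuclear receptor hexamers in a row with 1 base between them, is the layout that PPAR-RXR dimers bind, and was searched with up to 2 mismatches. Plin2 held 1 DR1 match, GGACCCCTGACCT on the strand of the gene, whose last letters are also its AGGTCA match on the opposite strand, and CACGTG across its start. A DR1 match was found in 1 of the 11 windows and in 3.86% of 32851 RefSeq windows. AGGTCA was found in both Plin5 windows and in that of Plin2, and in 16.3% of all windows. GGGCGG was found in 6 of the 11 and in 35.7% of all, while TCAAGGTCA was in none of the 11 and in 0.423% of all, and the cyclic AMP response element in none and in 1.79%. Cideb held TATAAA, as did 13.6% of all windows, and CACGTG, held only by Plin2 here, was in 7.15%. Plin4, Plin1, Cidec and Fitm1 held none of the 7 motifs. These are matches of letters and not binding sites.

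Of the 10 genes, 9 passed the filter on low counts and were tested by edgeR among 16540 genes. To be called, a gene needed an adjusted p under 0.05 with a fold change above 1.5 or below 0.67. In WT mice at 8°C against 30°C, 4 of the 9 were called higher (Plin2, Plin5, Cidea and Cideb) and none lower, where 10.3% of all genes tested were called higher and 6.93% lower. In HY/HY mice none of the 9 was called by cold, against 0.181% of all genes higher and 0.0665% lower. Between the genotypes none was called at 30°C (0.562% of all genes higher and 0.441% lower in HY/HY), and 3 were called lower in HY/HY at 8°C (Plin5, Cidea and Cideb), against 1.51% of all genes higher and 4.42% lower. For the difference between the cold responses, called at an adjusted p under 0.05 alone, none of the 9 passed, against 0.169% of all genes higher and 2.07% lower. Without adjustment, 4, 1 and 6 of the 9 had a p under 0.05 for cold in HY/HY, for genotype at 30°C and for the difference in cold response, and DESeq2 called 1, 1 and 4. The shares of all genes that passed these other limits are not given here, so those counts have no reference beside them. The comparisons share libraries: the WT cold response and the genotype comparison at 8°C use the same WT libraries at 8°C. The calls in these 2 comparisons are therefore not independent. The genotype comparison at 30°C likewise shares the WT libraries at 30°C with the WT cold response.

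**Figure D1:**
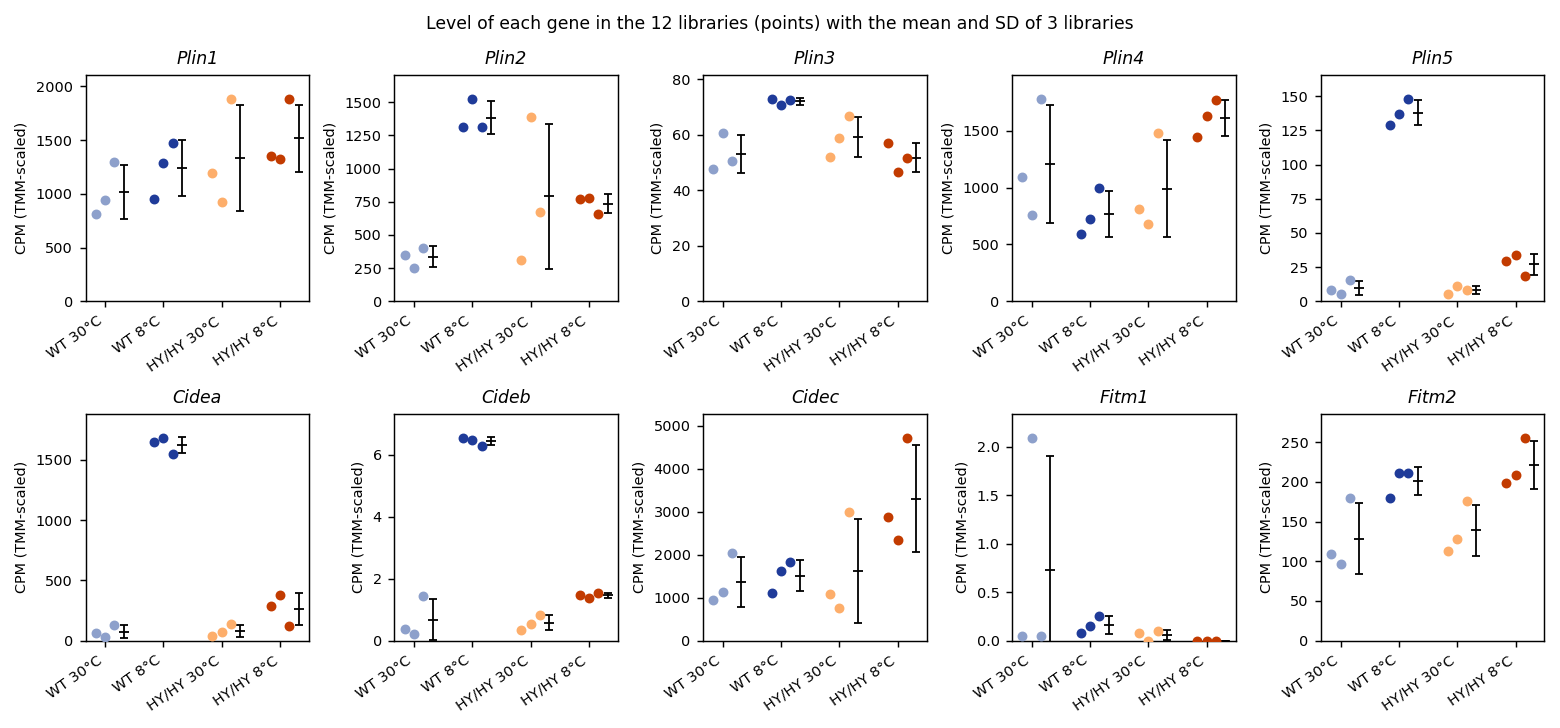
Level of each of the 10 genes (CPM, TMM-scaled, linear axis from 0) in the 3 libraries of each group (points, libraries 1 to 3 from left to right), with the mean and SD beside them. Plin5, Cidea and Cideb are high in the 3 WT libraries at 8°C, while Cidec and Plin4 are highest on average in HY/HY mice at 8°C.

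Plin1, the main coat protein of the white adipocyte droplet, was abundant in every library, from 810.1 to 1883 CPM. Its group means were 1016 ± 249 CPM in WT and 1333 ± 494 for HY/HY at 30°C, and 1237 ± 262 and 1518 ± 312 at 8°C (SD, n = 3 each). The 4 groups overlapped in each comparison, and its log2 fold change was 0.28 ± 0.28 (SE) by cold in WT mice and 0.29 ± 0.28 between the genotypes at 8°C, neither called (edgeR adjusted p = 0.492 and 0.592). The 95% interval of the WT cold response ran from -0.33 to 0.90.

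Plin2, the broadly expressed droplet coat protein that follows the amount of stored lipid in many cells, was at 352, 250.4 and 405 CPM in WT mice at 30°C and at 1310, 1525 and 1315 CPM at 8°C. The WT groups did not overlap, and Plin2 rose 4.12-fold (log2 fold change 2.04 ± 0.41, adjusted p = 0.00465). HY/HY mice had 311, 1388 and 670.2 CPM at 30°C and at 774, 778 and 656 CPM of it at 8°C. The 30°C libraries of HY/HY mice thus spanned the range from the WT level at 30°C to that at 8°C, with library 2 at the top, and the cold difference was -0.10 ± 0.39 on the log2 scale (adjusted p = 0.931). Without library 2 this difference was 0.59 (adjusted p = 0.51). At 8°C every HY/HY library lay below every WT library, by -0.91 ± 0.40 on the log2 scale (adjusted p = 0.201). At 30°C the HY/HY level was 2.35-fold the WT level in the fit (adjusted p = 0.138), and 0.55 on the log2 scale without library 2. The cold responses differed by -2.14 ± 0.56 (adjusted p = 0.0792), or by -1.46 without library 2. That library, which had the lowest white adipocyte sum, also held 2770 CPM of Dgat2 and 1633 CPM of Agpat2, both of triglyceride synthesis, the most among the 30°C libraries. The part of these differences between libraries in the Plin2 result was not tested.

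Plin5, which links droplets to mitochondria, was scarce at 30°C, at 8.20, 5.69 and 15.8 CPM in WT mice and 5.26, 11.5 and 8.31 CPM in HY/HY mice. At 8°C it was at 129, 137 and 148 CPM in WT mice and at 29.2, 33.5 and 18.3 CPM in HY/HY mice. In each genotype the 8°C libraries lay above all 30°C libraries, and at 8°C those of HY/HY mice lay below those of WT mice. The rise in WT mice was 14.1-fold (log2 3.82 ± 0.38, adjusted p = 6.03e-05). The difference by cold among HY/HY mice was 3.23-fold (log2 1.69 ± 0.36, 95% interval 0.91 to 2.48, adjusted p = 0.0877) and was not called. At 8°C Plin5 was 5.11-fold lower in HY/HY mice (log2 -2.35 ± 0.35, adjusted p = 0.0032). The difference between the cold responses, -2.12 ± 0.50, missed the limit narrowly (adjusted p = 0.0503), and over the alternatives its adjusted p ran from 0.00151 with DESeq2 to 0.141 without WT 30°C library 1. The genotype difference at 8°C was called in every setting tried.

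Plin4 behaved otherwise than its neighbour. This coat protein of small, newly formed droplets was at 1089, 763 and 1780 CPM in WT mice at 30°C and 596, 722 and 993 CPM at 8°C, with overlap, and the difference of -0.65 ± 0.34 was not called (adjusted p = 0.182). HY/HY mice had 808, 683 and 1480 CPM at 30°C and 1448, 1626 and 1767 CPM at 8°C, again with overlap (log2 0.70 ± 0.34, adjusted p = 0.366). At 8°C the 3 HY/HY libraries all lay above the 3 WT libraries, 2.10-fold in the fit (log2 1.07 ± 0.34, adjusted p = 0.0849). It was not called in that fit, but was with DESeq2 (adjusted p = 0.0223), with library totals in place of TMM (0.0226) and in other settings. Library totals also brought a call by cold in WT mice (log2 -0.97, adjusted p = 0.0175). The ratio of Plin5 to Plin4 per kilobase, looked at after the values were seen, was 0.0155 to 0.0463 in the 6 libraries at 30°C, 0.411 to 0.598 in WT mice at 8°C and 0.0285 to 0.0569 in HY/HY mice at 8°C.

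Plin3, a coat protein that moves between cytosol and droplets, varied least. It was at 47.8 to 60.7 CPM in WT and 52.1 to 66.6 CPM in HY/HY mice at 30°C, and at 70.6 to 72.9 and 46.7 to 57.0 CPM at 8°C. The 3 WT libraries at 8°C lay above every other library, 1.36-fold above WT mice at 30°C (log2 0.44 ± 0.12, adjusted p = 0.0219), and HY/HY mice were 1.39-fold lower at 8°C (log2 -0.48 ± 0.12, adjusted p = 0.0353). Both passed the limit on p and not that on fold change, and with library totals neither passed on p (0.538 and 0.127).

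**Figure D2:**
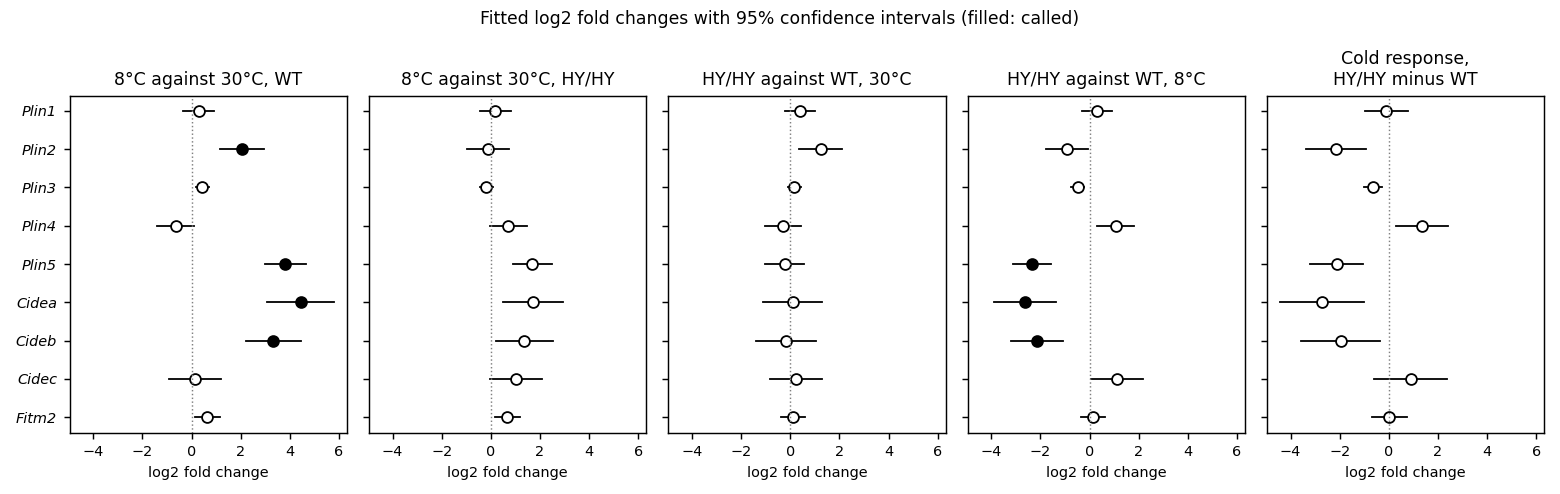
Fitted log2 fold changes (points) with 95% confidence intervals (lines) of the 9 genes tested, in the 5 comparisons, from the edgeR fit of all 12 libraries. Filled points were called: Plin2, Plin5, Cidea and Cideb by cold in WT mice, at 2.04 to 4.44, and Plin5, Cidea and Cideb between the genotypes at 8°C, at -2.63 to -2.13.

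Among the CIDE genes, Cidea, the form of brown and beige adipocytes, was at 60.2, 33.1 and 131.5 CPM in WT mice at 30°C and at 1645, 1681 and 1547 CPM at 8°C. This rise, 21.7-fold (log2 4.44 ± 0.63, adjusted p = 0.000549), was the largest of the 10 genes. Cidea in HY/HY mice was at 35.5, 68.7 and 135.7 CPM at 30°C and at 290.1, 379 and 118 CPM at 8°C. The groups of HY/HY mice overlapped, because library 3 at 8°C lay below library 3 at 30°C, and the difference of 3.29-fold was not called (log2 1.72 ± 0.56, adjusted p = 0.205). At 8°C Cidea was 6.19-fold lower in HY/HY mice (log2 -2.63 ± 0.58, adjusted p = 0.0193), with no overlap. Leaving out any of 5 of the 6 libraries at 8°C took the adjusted p above 0.05 (0.051 to 0.0802), while the log2 difference ran from -2.99 to -2.28. The cold responses differed by -2.72 ± 0.79 (adjusted p = 0.109).

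Cideb was close to the detection limit at 30°C. In WT mice it had 8, 6 and 27 counts at 30°C and 88, 86 and 98 at 8°C, and in HY/HY mice 9, 16 and 16 counts at 30°C and 23, 22 and 19 at 8°C. In CPM it was at 0.216 to 1.43 in WT mice at 30°C and 6.28 to 6.53 at 8°C, without overlap, and rose 9.99-fold (log2 3.32 ± 0.51, adjusted p = 0.000927). HY/HY mice were at 0.348 to 0.831 CPM at 30°C and 1.37 to 1.54 CPM at 8°C, also without overlap, 2.58-fold in the fit and not called (log2 1.37 ± 0.54, adjusted p = 0.273). At 8°C they were 4.37-fold below WT mice (log2 -2.13 ± 0.48, adjusted p = 0.0219). That call was lost without any single one of the 6 libraries at 8°C (adjusted p 0.0635 to 0.0888, log2 -2.16 to -2.08) and with counts that ignore strand (0.136). Cideb overlaps Nop9 and Ltb4r2, and counting without strand left 0 to 22 reads for it in a library.

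Cidec, which builds the single large droplet of white adipocytes, was the most abundant CIDE gene outside WT mice at 8°C. It was at 944, 1123 and 2035 CPM in WT mice at 30°C and 1106, 1618 and 1825 CPM at 8°C, with wide overlap (log2 0.15 ± 0.48, adjusted p = 0.849). In HY/HY animals it was at 1093, 749 and 3003 CPM at 30°C and at 2877, 2334 and 4715 CPM at 8°C (log2 1.03 ± 0.48, adjusted p = 0.348). Library 3 at 30°C was the source of the overlap, and without it the difference was 1.85 (adjusted p = 0.0299), while Cidea, at 2.33 (0.0483), and Plin5, at 1.69 (0.0451), were then called too. At 8°C all 3 HY/HY libraries lay above all WT libraries, 2.18-fold in the fit, and were not called (log2 1.13 ± 0.49, 95% interval 0.07 to 2.18, adjusted p = 0.195).

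The FIT genes were unlike in level. Fitm2, which supports droplet budding in fat, was at 109, 96.9 and 180 CPM in WT mice at 30°C and 180.2, 212 and 211 CPM at 8°C, and in HY/HY mice at 113, 128 and 176 CPM at 30°C and 199, 209 and 255 CPM at 8°C. In both genotypes the 8°C libraries lay above the 30°C libraries, narrowly in WT mice. The fitted difference was 1.56-fold in WT mice (log2 0.65 ± 0.23, adjusted p = 0.059) and 1.59-fold in HY/HY mice (log2 0.67 ± 0.23, adjusted p = 0.22), neither called, and the cold responses differed by 0.03 ± 0.32 (95% interval -0.68 to 0.73, adjusted p = 0.981). Fitm2 was called by cold in WT mice with DESeq2 (adjusted p = 0.0239), scaled to white adipocyte markers (0.039), without a filter (0.0403) and with the replicate number as a block (0.00712). Without WT 30°C library 3 the WT difference was 0.97 (adjusted p = 0.00566). Fitm1, the muscle form, had 0 to 4 counts in 11 libraries and 58 in WT 30°C library 2, the library with muscle RNA. It failed the filter and was not tested. In the 3 libraries of HY/HY mice at 8°C it had 0 counts, which allows up to 3 in each.

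Compared per kilobase of exon, the order of the genes changed with temperature in WT mice. At 30°C Cidec (737 ± 315 CPM per kilobase) and Plin1 (530.4 ± 130) led in WT mice, followed by Plin4 (210.4 ± 90.2), Plin2 (95.6 ± 22.3) and Cidea (64.4 ± 43.7). The ranges of mean ± SD of neighbours in this order overlapped, except for Plin1 with Plin4 and Plin4 with Plin2. At 8°C Cidea came first in WT mice (1395 ± 59.6), above Cidec (817 ± 199) and Plin1 (646 ± 137), with Plin2 (394 ± 34.9) next and Plin5 (66.2 ± 4.53) past Fitm2 (50.6 ± 4.52). Of these neighbours, Cidec and Plin1 overlapped. In HY/HY mice at 8°C Cidec (1783 ± 672) and Plin1 (792 ± 163) kept the first places, with Plin4 at 280.4 ± 27.8, Cidea at 225 ± 114, Plin2 at 209.6 ± 19.7 and Plin5 at 12.9 ± 3.77. The range of Cidea there overlapped those of Plin4 and Plin2, which did not overlap each other. With the longest transcript in place of all exons, Plin2 moves up to 733 ± 65.0 in WT mice at 8°C, above Plin1, and to 390 ± 36.7 in HY/HY mice at 8°C, above Plin4. Within a family this shows as a change in make-up. Cidea made up 57.4 to 70.2% of the CIDE counts per kilobase in WT mice at 8°C, 4.48 to 12.8% in the 6 libraries at 30°C and 3.84 to 20.6% in HY/HY mice at 8°C. Plin2 made up 26.4 to 34.9% of the perilipin counts in WT mice at 8°C and 12.4 to 18.1% in HY/HY mice at 8°C. Plin5 made up 4.93 to 5.79% and 0.58 to 1.30% there, and Plin4 9.42 to 12.2% and 20.4 to 22.9%. At 30°C Plin2 made up 9.79 to 13.6% in WT and 10.1 to 38.4% in HY/HY libraries, the most in library 2. Plin4 made up 18.2 to 27.4% and 11.5 to 17.55% at 30°C, and Plin5 0.27 to 0.67% in the 6 libraries. These shares rest on all exons, and with the longest transcript that of Plin2 would be larger.

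**Figure D3:**
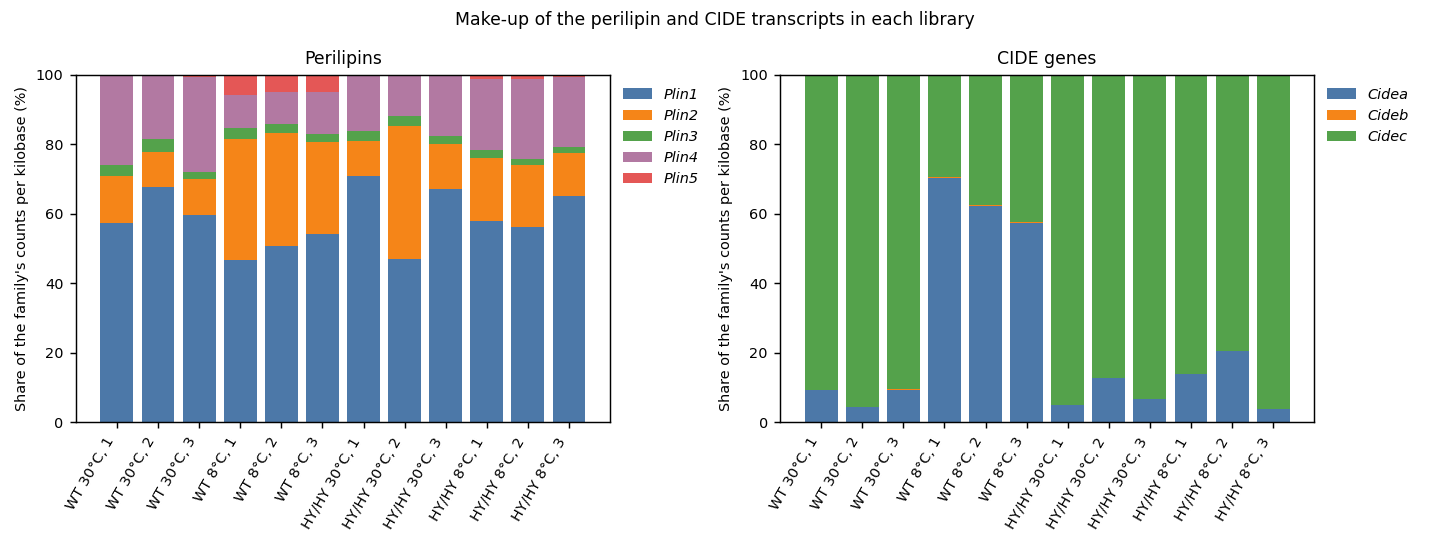
Share of each gene in the summed counts per kilobase of its family (%, stacked from 0 to 100) in each of the 12 libraries, for the 5 perilipins (left) and the 3 CIDE genes (right). Cidea exceeds Cidec in the 3 WT libraries at 8°C and in no other library, and Cideb is too scarce to be seen.

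Ratios between members within a library do not depend on the scaling of libraries. Of 8 ratios listed, 7 could be computed in each of the 4 comparisons, since Fitm1 had 3 counts or fewer in 10 libraries, and 15 of these 28 comparisons of ratios had groups that did not overlap. The 28 share libraries and members, and ratios of other genes were not computed, so this count has no reference beside it. A comparison of 3 libraries with 3 cannot give an exact permutation p (two-sided) below 0.1, which after adjustment over the 28 was 0.187, so none passed. The ratio of Cidea to Cidec was 0.047 to 0.103 in WT mice at 30°C, 1.35 to 2.37 at 8°C and 0.0399 to 0.259 in HY/HY mice at 8°C. The ratio of Cidec to Plin1 differed little in WT mice (1.20 to 1.63 at 30°C and 1.20 to 1.30 at 8°C), and was 0.835 to 1.65 at 30°C and 1.82 to 2.59 at 8°C in HY/HY mice, where the groups did not overlap (a difference of 1.00 on the log2 scale). The ratio of Plin4 to Plin1 was 0.268 to 0.459 in WT mice at 30°C and 0.186 to 0.225 at 8°C, a log2 difference of -0.89. For HY/HY mice it was 0.226 to 0.262 at 30°C and 0.313 to 0.408 at 8°C, a log2 difference of 0.55. It was the only ratio whose groups were apart in all 4 comparisons, downward by cold in WT mice and upward in HY/HY mice. For the ratio, the difference between those directions was not tested. For the level of Plin4 the cold responses differed by 1.36 ± 0.48 (SE, edgeR adjusted p = 0.205), which was not called.

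The levels of the members were set beside summed RNA markers of cell types, which some members followed and others did not. The summed level of 8 thermogenic adipocyte markers, Ucp1 among them, was 30.0 to 106 CPM in the 6 libraries at 30°C, 7644 to 8904 CPM in WT mice at 8°C and 1077, 1462 and 444 CPM in HY/HY mice at 8°C. Plin2 (774, 778 and 656 CPM), Plin5 and Cidea had the same order among the 3 HY/HY libraries at 8°C, library 2 highest and library 3 lowest. Cideb was 1.49, 1.37 and 1.54 CPM there. An order of so few libraries can arise without any link, and none was tested. Plin2 in HY/HY 30°C library 2, at 1388 CPM, came with a thermogenic sum of 39.7 CPM. The white adipocyte sum was 32600 to 57050 CPM in WT and 26350 to 72980 CPM in HY/HY mice at 30°C, and 34140 to 43580 and 47250 to 71090 CPM at 8°C. Plin1, Plin4 and Cidec were highest in library 3 in each of the 4 groups, the library with the largest white adipocyte sum of its group. Scaled to these markers, Plin4 differed between the genotypes at 8°C by 0.51 (adjusted p = 0.141) in place of 1.07, and Plin5, Cidea and Cideb remained called. Of the 10 markers, 2 were themselves called higher in HY/HY mice at 8°C, where 1.51% of all genes were. These were Lep (log2 1.99, edgeR adjusted p = 0.0265) and Retn (0.80, 0.0362). By cold in WT mice 1 of the 10 was called higher and 2 lower. This scaling thus also takes out changes of the markers themselves. Beside the calls by cold in WT mice, the sum of 5 endothelium markers was 411 to 635 CPM at 30°C and 771 to 1062 CPM at 8°C, with 4 of the 5 called higher, against 609 to 723 and 612 to 802 CPM in HY/HY mice with none called. The sum of 11 mammary epithelium markers was 2128 to 3867 CPM in WT mice at 30°C and 1427 to 1570 CPM at 8°C, with 3 of the 9 tested called lower, and 560 to 1573 and 933 to 1360 CPM in HY/HY mice with none called. The part of the cell make-up in the levels was not tested.

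**Figure D4:**
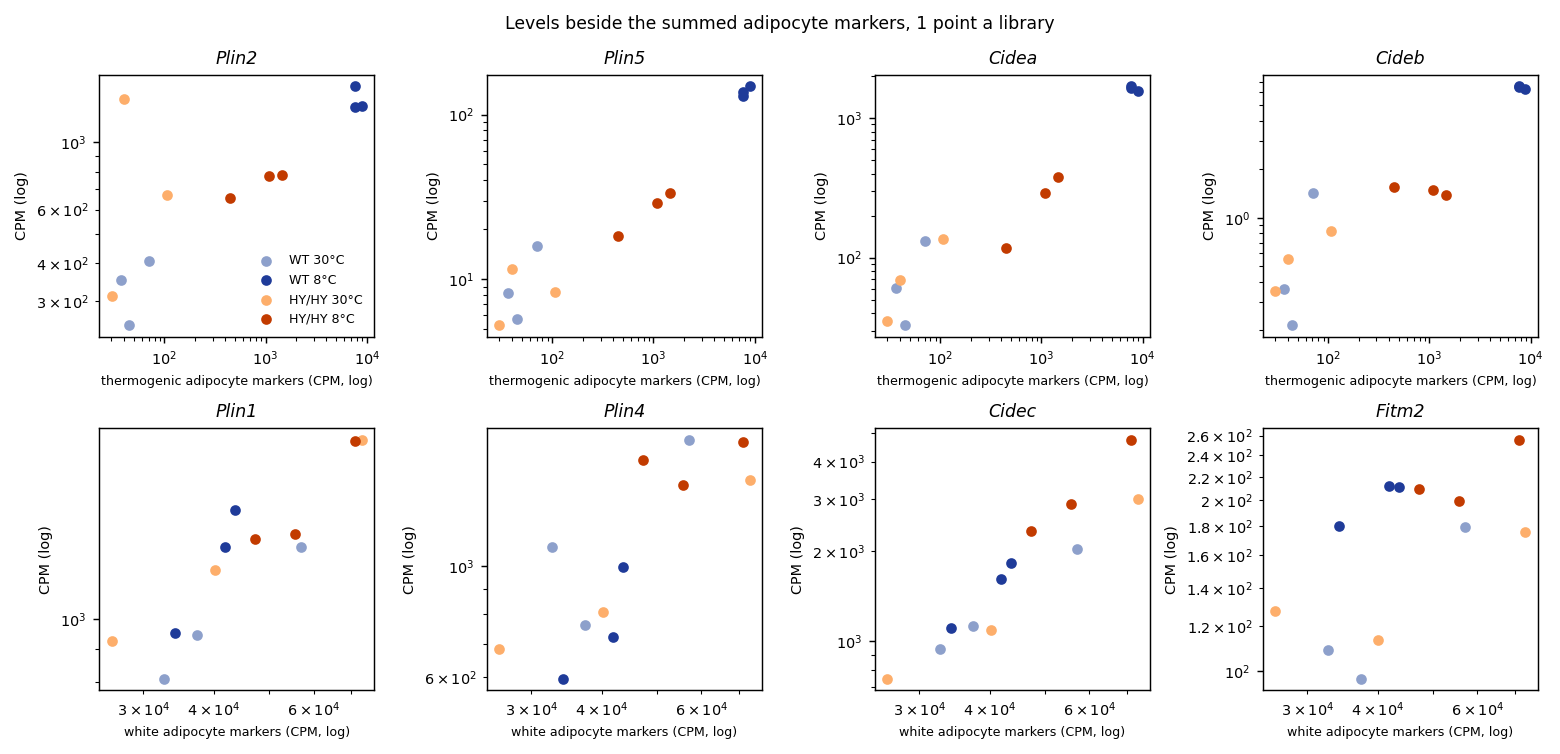
Level of 8 of the genes (CPM, log axes) against the summed level of 8 thermogenic adipocyte markers (top row: Plin2, Plin5, Cidea, Cideb) or 10 white adipocyte markers (bottom row: Plin1, Plin4, Cidec, Fitm2), 1 point a library, coloured by group. In the top row the WT libraries at 8°C stand at 7644 to 8904 CPM of markers and the HY/HY libraries at 8°C at 444 to 1462 CPM.

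Other genes of droplet formation and use were read from lists on the same fit. Of 11 genes of droplet formation, 4 rose and 1 fell by cold in WT mice, with a median log2 fold change of 0.55 beside -0.07 for all genes tested. Of all genes tested, 10.3% were called higher and 6.93% lower in that comparison. Agpat2, which makes phosphatidic acid for triglyceride synthesis, rose by 2.03 (adjusted p = 0.00225), and Bscl2, which encodes seipin, the protein at sites of droplet budding, by 0.77 (0.0177). Tmem159, which encodes the seipin partner LDAF1, fell by 0.85 (0.00104), from 42.1 to 44.1 CPM at 30°C to 22.1 to 25.7 CPM at 8°C. Of 8 lipolysis genes 4 rose (median 0.78), with Abhd6 at 0.94 (0.019), Pnpla3 at 0.90 (0.00514) and Mgll, monoacylglycerol lipase, at 0.86 (0.0148) in front. Abhd5, the activator of ATGL that PLIN1 and PLIN5 bind, rose by 0.76 (0.032), whereas Pnpla2, which encodes ATGL itself, was 0.79 higher without being called (0.164). Of 19 other droplet genes tested 5 rose (median 0.13), among them Clstn3 at 2.68 (0.000759), Acsl1 at 1.06 (0.0368) and Miga2 at 0.72 (0.0295). In HY/HY mice none of these 38 genes tested was called by cold, against 0.181% of all genes higher and 0.0665% lower. With shares this low, the absence of calls among 38 genes is uninformative. Between the genotypes Pnpla3 was higher in HY/HY mice at 30°C (1.13, adjusted p = 0.0263) and Tmem159 at 8°C (0.65, adjusted p = 0.0147), and no other of the 38 was called. Of all genes, 0.562% were called higher and 0.441% lower at 30°C, and 1.51% and 4.42% at 8°C. Tmem159 was also the 1 gene of the 38 called for the difference between the cold responses (0.91, adjusted p = 0.0315). For that difference, 0.169% of all genes tested were called higher and 2.07% lower, so 1 call among 38 does not set these lists apart.

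The genes whose profile lay nearest to a called member were sought among the 15899 genes that averaged 10 counts or more, by the root mean square (RMS) difference of log2 CPM after each gene's own mean was taken off, over the 12 libraries. For Plin2, which ranged over 2.61 log2 units, they were Gm12286 (RMS 0.25), Pdhb, a subunit of pyruvate dehydrogenase (0.26), and Dhrs7 (0.29). For Plin5, with a range of 4.79, they were Tmem37 (0.33), Pank1, of coenzyme A synthesis (0.35), and Cideb (0.45). Those of Cidea, with a range of 5.66, were Plin5 (0.47), Pdk4, which inhibits pyruvate dehydrogenase (0.47), and Cox8b, a cytochrome c oxidase subunit of brown fat (0.52). Those of Cideb, with a range of 4.37, were Tmem37 (0.38), Acaa2, a thiolase of fatty acid oxidation (0.43), and Slc25a20, the mitochondrial carnitine-acylcarnitine carrier (0.44). Plin5 was thus among the 3 nearest to Cidea and Cideb among those nearest to Plin5, while Plin5 and Cideb shared Tmem37. No member was among the 3 nearest to Plin2 or to Cideb. The 4 members were taken because they were called, all of them higher by cold in WT mice. Some likeness of their profiles therefore comes with that choice.

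**Figure D5:**
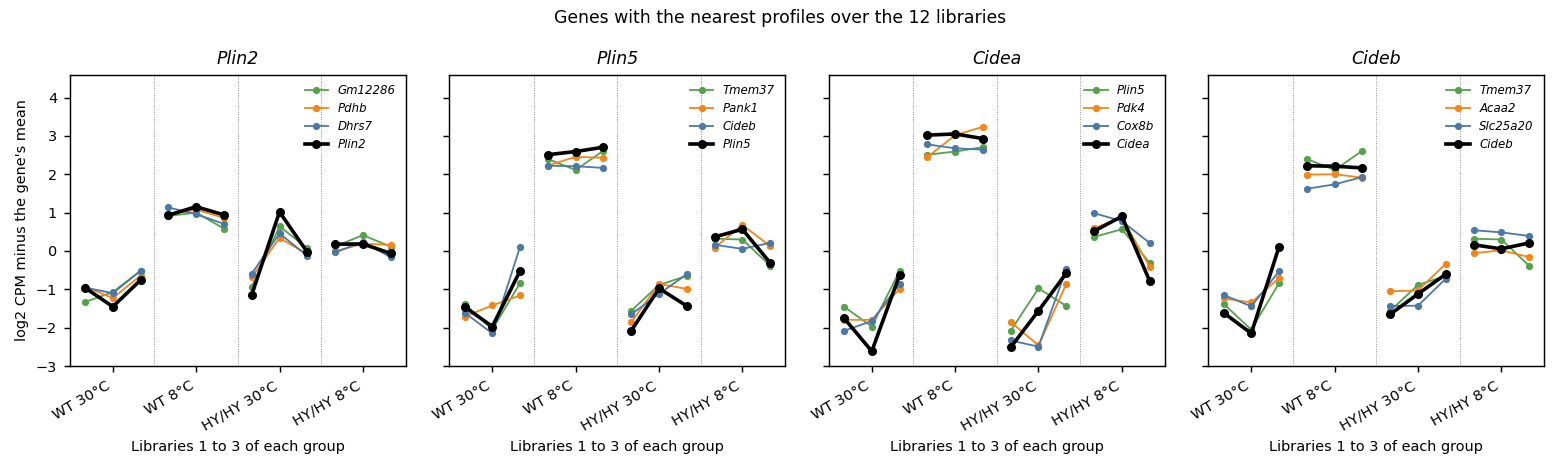
Log2 CPM minus the gene's own mean (vertical axis) in libraries 1 to 3 of each group for the 4 members called by cold in WT mice (black) and the 3 genes with the nearest profile (colours). Plin5, Cidea and Cideb share a high level in the WT libraries at 8°C and a lower one in the HY/HY libraries at 8°C, while Plin2 in HY/HY 30°C library 2 (1388 CPM) is near its level in WT mice at 8°C.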

How the data were processed

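RNA from scWAT was sequenced as paired 50-base reads in 12 libraries, 3 for each of 4 groups. Per the paper, the authors used fastp for trimming and STAR for alignment to mm10 with GENCODE annotation. They deposited whole-number counts per gene, unnormalised, with strand ignored and for either strand. The sense-strand counts were used here. Entries that name no gene held 55.8% to 63.5% of read pairs and were left out of library sizes. Symbols were matched for 32589 of 55401 IDs, with 2731 left out because their symbol is shared.

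Counts were fitted in R 4.3.3 with edgeR 4.0.16 (filterByExpr, TMM, quasi-likelihood test), with 4 group means and 8 residual degrees of freedom. The p-values are two-sided and Benjamini-Hochberg adjusted over the 16540 genes kept. They measure the spread between the libraries of a group. Each library was taken to be from a different mouse, which the labels do not state. The fit was tested on simulated data. Errors are SD over libraries or SE of the fit. Lengths per kilobase are exon lengths of an older GENCODE release. Alternatives used DESeq2 1.42.0, other scalings, filters, strands, samples, limits and a replicate block.

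The 10 genes and the lists were chosen with earlier results of these data known. All 10 are named, with the related genes that led each list by cold in WT mice or were called for the difference in cold response, the 3 nearest profiles of each called member, and Kdm3a. Dgat2, Abhd5, Pnpla2 and the Plin5 to Plin4 ratio were added after their values were seen.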

Additional observations from a re-analysis of the deposited data

Results flagged for a closer look

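Tmem159, the gene for the seipin partner LDAF1, was singled out because its cold response differed between the genotypes by a test of the difference itself. By that test, 0.169% of all genes were called higher and 2.07% lower. The log2 cold response was -0.85 ± 0.13 for WT and 0.06 ± 0.13 for Jmjd1a HY/HY, which gives a difference of 0.91 ± 0.19 (SE, edgeR adjusted p = 0.0315). It was at 22.1 to 25.7 CPM in WT mice at 8°C and at 28.4 to 44.1 CPM in the other 9 libraries, without overlap.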

How the results depend on the processing

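The 4 calls by cold in WT mice kept their direction and their call in every alternative that tested the gene. Another gene was added in some, giving 5: Fitm2 with DESeq2, scaled to white adipocyte markers, without a filter, with the replicate block, at an adjusted p under 0.1 and without WT or HY/HY 30°C library 3, Plin3 without the limit on fold, and Plin4, lower, with library totals. DESeq2 called 1 of the 9 genes by cold in HY/HY mice (Plin5), 1 between the genotypes at 30°C (Plin2) and 4 for the difference in cold response (Plin2, Plin3, Plin5 and Cidea). For that difference, none was called in the main setting, 1 (Plin5) with median-ratio size factors, without genes of mitochondrial DNA in the library sizes, with at least 10 counts in every library and with strand ignored, 3 (Plin2, Plin5 and Cidea) without a filter or scaled to white adipocyte markers, and 3 (Plin2, Plin3 and Plin5) at an adjusted p under 0.1. Cold in HY/HY mice gave 1 call (Plin5) without a filter and at an adjusted p under 0.1. Between the genotypes at 8°C, 5 were called when scaled to white adipocyte markers (with Plin2 and Plin3) and 6 with only the libraries compared (with Plin2, Plin4 and Cidec). Leaving out each library in turn gave 0 to 3 calls by cold in HY/HY mice, 0 to 1 between the genotypes at 30°C, 1 to 4 at 8°C and 0 to 4 for the difference in cold response, the most without HY/HY 30°C library 3, library 1, library 3 and library 1. Library totals shifted the median of all genes by cold in WT mice from -0.07 to -0.41, with 1057 genes called higher and 4133 lower in place of 1707 and 1147. Scaling to white adipocyte markers gave 1108 and 69 there, and between the genotypes at 8°C a median of -0.56 with 24 and 1724 in place of 249 and 731 (535 and 480 with library totals). No called direction of a member reversed. For most of these settings the share of all genes called is not given here. The cause of these changes was not tested.

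Same-numbered libraries of different groups correlated at -0.07 to 0.35 in their deviations from the group means, 11 of 18 pairs above 0.1, with a median of 0.115 against -0.0505 for libraries of different numbers. Not every pair passed 0.1 and the labels name nothing that the numbers share, so the fit without the block was kept, though whether the numbers mark something shared is not settled. All 3 pairs of HY/HY mice at 30°C and 8°C passed 0.1, and the block gave no call by cold there. With the replicate number as a block, 5 members were called by cold in WT mice (with Fitm2), 5 between the genotypes at 8°C (with Plin4 and Cidec) and 1 for the difference in cold response (Plin4). Cideb was under the filter of 10 counts in every library, and its ratio to Cidec could not be computed in every comparison with strand ignored.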
